A study of Mus musculus with 6 samples.

Results

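The keratin genes are the protein-coding genes of the GENCODE M39 mouse annotation whose symbol is Krt followed by a number and, in some, a letter. This rule gave 54 genes of 21757 protein-coding genes. Of these, 5 encode the keratins of simple epithelium (Krt7, Krt8, Krt18, Krt19 and Krt20) and 49 encode other keratins, here sorted by their known place of use into 18 genes of stratified epithelium, 16 of the hair shaft, 8 of the inner root sheath and companion layer of the hair follicle, and 7 remaining genes. Each gene was described by the accessible intervals that lay within 1 kb of it.

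Accessible chromatin was measured by ATAC-seq, in which the transposase Tn5 inserts sequencing adapters into open DNA, on nuclei from mouse kidney cortex. By the labels, 3 libraries came from WT mice and 3 from tubule-specific Acly knockout mice (Acly cKO), all with the treatment label Control and with no age given. The knockout joined floxed Acly alleles to the Ksp-Cre (Cdh16-Cre) transgene, whose promoter drives recombination in tubular epithelium broadly, from proximal tubule to collecting duct, and by the study's methods littermates without Cre served as controls. WT libraries carry the batch labels 1 and 2 and knockout libraries 4 and 5, so an effect of batch cannot be told apart from one of genotype. The deposited peak list is a single call which, by its peak names, pools all libraries. Which libraries entered it is not listed, so further WT libraries that the study used may or may not be among them. The list therefore holds no value of a single library, no replicate error and no contrast between WT and Acly cKO, and the depth of each library is unknown. For each summit of an interval the list gives the fold enrichment, a linear ratio of the signal over the background of the peak caller, and the -log10 of the q-value. The summit with the lowest q stands for its interval.

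Keratins are the intermediate filament proteins of epithelial cells. Each filament pairs an acidic type I chain with a basic type II chain, and the genes of the type I and the type II chains sit in separate clusters, which in the mouse are on chromosomes 11 and 15. KRT8 and KRT18 are the usual pair of single-layered epithelia, including kidney tubules, whereas KRT7, KRT19 and KRT20 mark ducts, transitional epithelium or gut lining. KRT5 and KRT14 fill the basal cells of stratified epithelium, KRT1 and KRT10 replace them in the upper epidermis, and the hair keratins build the hardened cells of the shaft.

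The sequence just upstream of the start is shown for the 4 simple-epithelium genes that had a RefSeq promoter window, and for Krt10 and Krt5 as epidermal counterparts, because these are the sites where the groups differed. Capitals mark the TATA box, written TATAAA, and the GC box, written GGGCGG, on either strand. A further capital run in Krt10 is a CCAAT box on the reverse strand. The stretches lie at chr15:101310083-101310282 and chr15:101936415-101936614 on the plus strand, and at chr15:101912918-101913027, chr11:99328986-99329185, chr11:99280196-99280395 and chr15:101621347-101621546 on the minus strand of GRCm39, all upstream of the canonical transcript. The sequences are from the RefSeq windows of GRCm38.p6 and were placed on GRCm39 by an exact match.
Krt7: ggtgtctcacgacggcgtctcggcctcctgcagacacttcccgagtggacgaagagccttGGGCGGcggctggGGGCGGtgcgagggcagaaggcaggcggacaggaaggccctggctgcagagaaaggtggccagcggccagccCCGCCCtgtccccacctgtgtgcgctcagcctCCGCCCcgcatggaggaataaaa
Krt18: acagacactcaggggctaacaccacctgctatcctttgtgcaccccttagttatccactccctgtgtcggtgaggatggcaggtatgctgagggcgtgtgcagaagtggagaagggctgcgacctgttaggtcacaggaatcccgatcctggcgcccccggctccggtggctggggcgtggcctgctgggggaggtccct
Krt8: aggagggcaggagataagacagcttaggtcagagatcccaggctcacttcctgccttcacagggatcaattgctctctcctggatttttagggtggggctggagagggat
Krt20: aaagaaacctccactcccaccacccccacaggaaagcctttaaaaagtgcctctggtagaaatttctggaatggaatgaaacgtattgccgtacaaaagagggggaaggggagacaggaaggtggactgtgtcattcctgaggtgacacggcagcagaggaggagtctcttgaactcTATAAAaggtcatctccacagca
Krt10: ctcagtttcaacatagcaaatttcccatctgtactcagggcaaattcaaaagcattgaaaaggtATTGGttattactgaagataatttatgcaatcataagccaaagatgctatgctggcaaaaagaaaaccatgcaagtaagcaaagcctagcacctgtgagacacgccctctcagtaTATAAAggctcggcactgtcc
Krt5: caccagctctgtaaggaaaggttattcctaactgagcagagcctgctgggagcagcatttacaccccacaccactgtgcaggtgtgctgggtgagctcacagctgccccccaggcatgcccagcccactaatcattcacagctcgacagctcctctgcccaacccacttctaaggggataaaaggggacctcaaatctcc
The Krt7 stretch held 4 GC boxes, the Krt20 and Krt10 stretches each held a TATA box, 29 and 26 bases before the RefSeq start, and the printed stretches of Krt18, Krt8 and Krt5 held none of these motifs. The Krt8 stretch stops 141 bases before the RefSeq start, and its promoter window holds TATAAA beyond the printed part, at that start.

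All 5 simple-epithelium genes had an accessible interval within 1 kb, against 21 of the 49 other keratin genes (42.9%), while 82.8% of all protein-coding genes had one. A strong interval, with a fold enrichment of at least 5, was present at 5 of 5 simple-epithelium genes and at 7 of 49 others (14.3%), beside 74.4% of all genes. An interval overlapping the 1 kb on either side of the canonical transcription start site (TSS) was found at 5 of 5 and at 8 of 49 (16.3%), beside 75.8% of all genes. The other keratin genes thus fell well below the genome-wide share in each count, and the simple-epithelium genes did not. In bulk tissue, fewer cells with an open site and less opening per cell cannot be told apart.

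**Figure D1:**
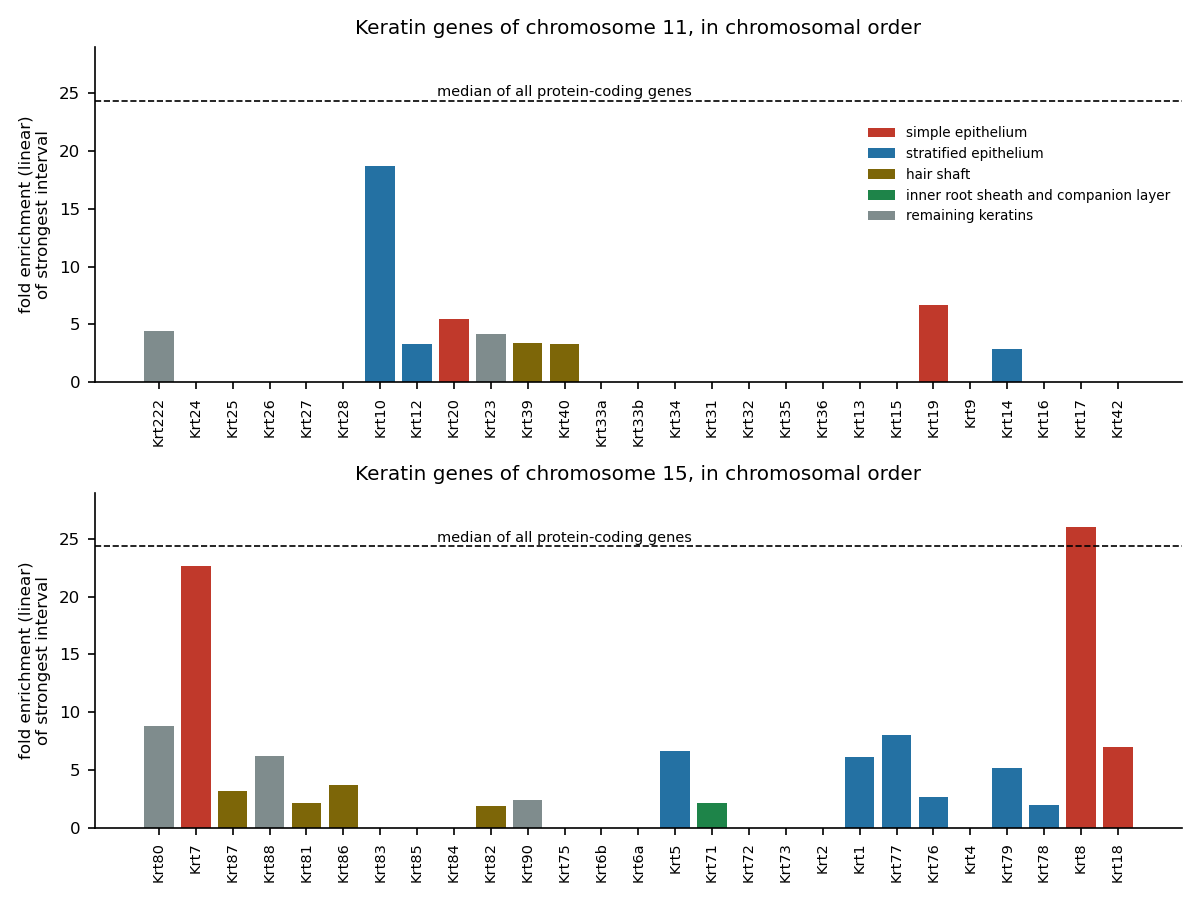
Linear fold enrichment of the strongest interval within 1 kb (y axis) for each keratin gene in chromosomal order (x axis), with genes without an interval at 0, colours for the groups and a dashed line at the median of all protein-coding genes, 24.4. Krt8, at 26.1, is the bar above the line, and 28 genes have no bar.

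The simple-epithelium genes carried 30 intervals, from 3 to 9 per gene with a median of 6, against a median of 0 in the other keratin genes and 4 in all protein-coding genes. Per 10 kb of gene and the 1 kb on either side this was 5.13 intervals, against 0.784 in the other keratin genes and 1.69 over all protein-coding genes. Gene length was similar in both keratin groups, with medians of 7.86 and 6.51 kb, and shorter than the 19.2 kb of all protein-coding genes. Intervals per 10 kb were thus above the value over all protein-coding genes, a pooled value in which long genes weigh most, but their height was not. This density was not particular to these keratins. It was 5.13 in 3 stromal genes and 3.98 in 5 collecting duct genes, which are listed further below. The median fold enrichment of the strongest interval was 6.94 in the simple-epithelium genes, from 5.43 to 26.1, whereas the median over all protein-coding genes was 24.4. Most of the intervals were weak, with a median fold enrichment of 2.23 over the 30 intervals, 2.98 over the 36 gene-interval pairs of the other keratin genes and 2.55 over all 279569 intervals of the list.

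Krt8 encodes the type II chain of the simple-epithelium pair and had the highest value of the family. Its strongest interval, chr15:101911148-101916597, spanned the TSS and held 13 summits. The highest summit lay 77 bp downstream of the TSS in the 5′ UTR of exon 1, with a fold enrichment of 26.1 (-log10 q = 407). A pair of further summits in intron 1, at 1168 and 1342 bp downstream, reached 21.4 and 22.6, and a summit 986 bp upstream reached 12.4. Krt8 thus had high summits on both sides of its start, inside a single interval. The other 8 intervals of Krt8 had fold enrichments between 1.70 and 3.27, and 7 of them had their summit in an intron. Krt8 stood above 51.9% of all protein-coding genes in the strongest fold enrichment.

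Krt18 encodes the type I partner of KRT8 and lies 23.7 kb from Krt8, on the opposite strand. The starts of the genes face each other across this gap, and the genes are transcribed away from each other. Its start was less enriched. The interval chr15:101935431-101937508 covered the TSS with 5 summits, and the highest, 13 bp downstream in the 5′ UTR, had a fold enrichment of 6.94 (-log10 q = 51.8). Its other 2 intervals, in intron 1 and coding exon 5, had fold enrichments of 2.23 and 1.83.

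Krt7, a type II keratin of ducts and transitional epithelium, had the second highest value among the keratin genes. The interval chr15:101307687-101314426 held 16 summits. The highest lay 41 bp upstream of the canonical TSS, within the printed stretch and among its GC boxes, with a fold enrichment of 22.7 (-log10 q = 334). A separate summit 1424 bp upstream of the canonical TSS reached 20.2 and lay 65 bp from the outermost annotated start of Krt7, and between them a summit at 886 bp upstream had 5.70. Of the other 8 intervals at Krt7, 5 had their summits in introns and the highest reached 3.86. The interval at the 3′ end, chr15:101328360-101328649, was also within 1 kb of Krt87, and it is the one interval assigned to more than 1 keratin gene.

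Krt19 and Krt20 encode type I keratins. At Krt19, a keratin of ducts, the interval chr11:100035589-100037649 covered the canonical TSS with 5 summits. The highest summit lay inside intron 1, 1019 bp downstream, with a fold enrichment of 6.68 (-log10 q = 48.4). Its nearest annotated start, 223 bp away, was that of the lncRNA gene Gm73150. The summit nearest to the Krt19 TSS, 38 bp downstream, had 5.43. No promoter sequence is shown for Krt19. At Krt20, a keratin of gut lining and of the surface cells of the urinary tract, the interval chr11:99328583-99329103 had a single summit 17 bp upstream of the TSS, with a fold enrichment of 5.43 (-log10 q = 33.1). A summit 3223 bp upstream of Krt20, beyond the 1 kb limit, was higher, at 6.68. Thus the strong intervals of Krt18, Krt19 and Krt20 had fold enrichments from 5.43 to 6.94, close to the threshold of 5, and those of Krt7 and Krt8 were far above it.

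**Figure D2:**
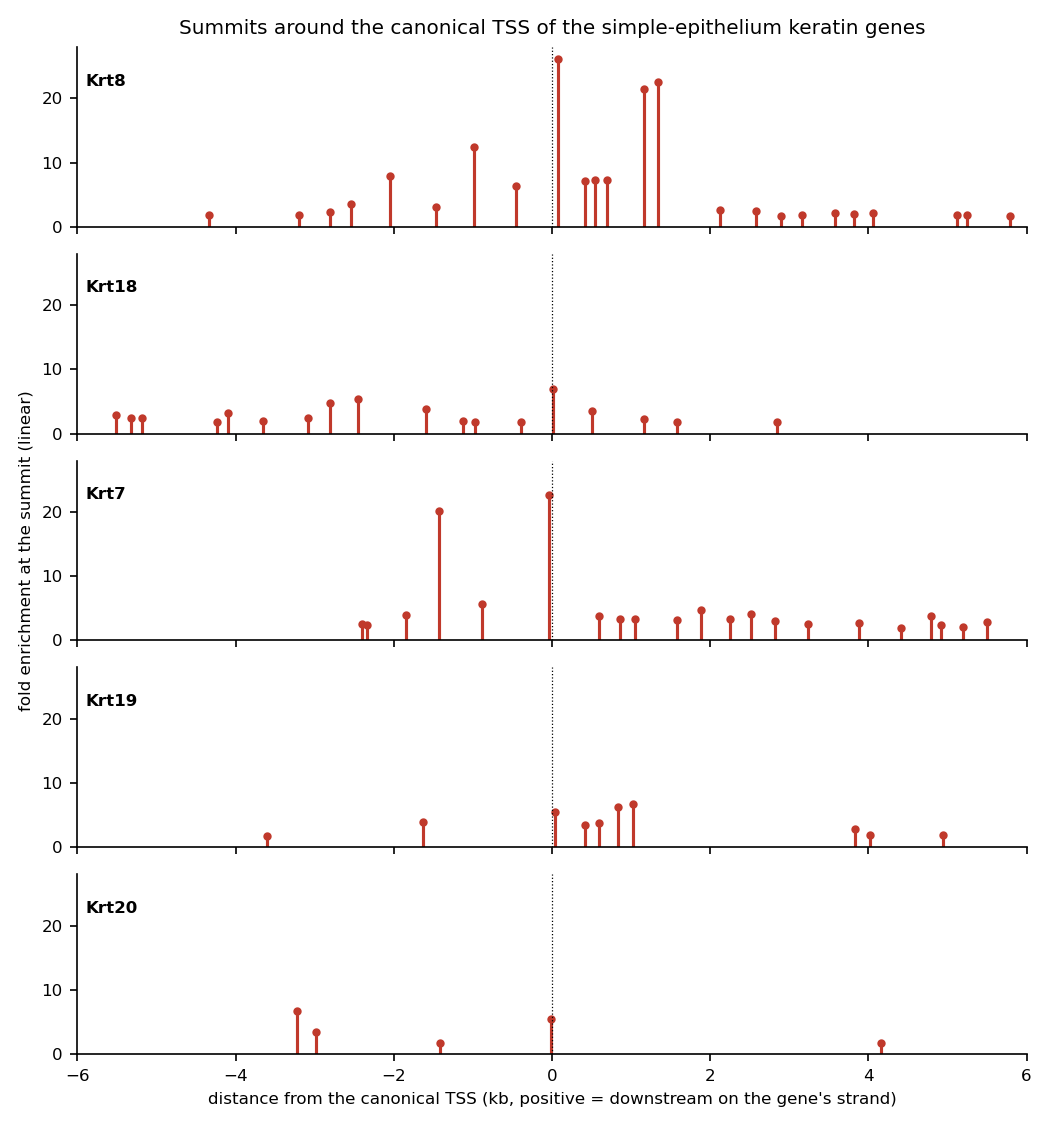
Summits within 6 kb of the canonical TSS (x axis, kb, positive downstream on the gene's strand) of the 5 simple-epithelium keratin genes, each line rising to the linear fold enrichment of the summit (y axis). Krt8 has 9 summits of at least 5, Krt7 and Krt19 have 3 each, and Krt18 and Krt20 have 2 each.

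The place of the strongest interval also differed. Its summit lay within 1 kb of the canonical TSS in 4 of 5 simple-epithelium genes and in 4 of the 21 other keratin genes with an interval, beside 63.3% of the 18009 protein-coding genes with one. The strongest interval covered the TSS in 5 of 5 and in 3 of 21, beside 67.2%. In the 21 others, the highest summit lay in an intron in 9 genes, in a coding exon in 5, upstream of the gene in 4 and downstream in 3. In the simple-epithelium genes it lay upstream in 2, in the 5′ UTR in 2 and in an intron in 1. Genes without any interval are in neither count of places.

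Among the keratin genes of stratified epithelium, 9 of 18 had an interval, 5 had a strong one and 3 had one at the promoter. These shares of 50%, 27.8% and 16.7% stand beside 82.8%, 74.4% and 75.8% of all protein-coding genes. Krt10, the type I chain of the upper epidermis, had the highest value, with a fold enrichment of 18.7 (-log10 q = 253) at chr11:99276589-99277860. That interval had a single summit in coding exon 7, 3297 bp downstream of the canonical TSS and 25 bp from the start of a shorter annotated Krt10 transcript. The interval next to the canonical start of Krt10 had a fold enrichment of 2.55, with its summit in coding exon 1. Krt77 had its strongest summit in coding exon 9, with a fold enrichment of 8.05, and Krt1, the type II partner of KRT10, also in coding exon 9, with 6.15. Krt5, the type II chain of basal cells, had 1 interval, in intron 2, with 6.61 and no interval at its start. Krt79, a keratin of the upper hair follicle, had 5.17 in intron 1. Krt14, the partner of Krt5, had 1 interval, in intron 7, with 2.88. At these genes of stratified epithelium the strong intervals thus lay in the gene body. No interval was found at Krt2, Krt4, Krt6a, Krt6b, Krt9, Krt13, Krt15, Krt16 or Krt17.

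The summits of Krt10, Krt77 and Krt1 are shown because these strong intervals of stratified keratins have their summits in coding exons. Each sequence is the 121 bases centred on the summit, on the minus strand, which is the coding strand, at chr11:99276838-99276958, chr15:101768433-101768553 and chr15:101754485-101754605 of GRCm39, with GGCGG in capitals.
Krt10: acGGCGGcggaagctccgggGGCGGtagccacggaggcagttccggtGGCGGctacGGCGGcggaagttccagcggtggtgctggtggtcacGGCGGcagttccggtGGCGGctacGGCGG
Krt77: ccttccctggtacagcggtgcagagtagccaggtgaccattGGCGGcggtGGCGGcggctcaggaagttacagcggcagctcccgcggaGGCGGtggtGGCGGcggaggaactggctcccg
Krt1: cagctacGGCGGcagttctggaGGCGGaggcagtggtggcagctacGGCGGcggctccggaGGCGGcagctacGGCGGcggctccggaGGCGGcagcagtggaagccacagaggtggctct
The word GGCGG occurred 7 times at Krt10, 4 times at Krt77 and 6 times at Krt1. On chromosomes 11 and 15, 14.0% of the 27471 summit windows of this length held GGCGG on either strand, and 0.451% held it at least 4 times on 1 strand. The word was not among the motifs planned for the promoters, and 4 is the lowest count at these summits. These shares therefore describe a choice made from the sequences themselves and carry no test. The GC content was 74.4%, 70.2% and 72.7%, against a median of 52.9% over these windows, and above that of 98.8%, 97.2% and 98.4% of them. As background, the tails of KRT1 and KRT10 are rich in glycine, whose codons begin with GG. The part of GC content in these values was not tested.

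Among the hair shaft genes, 6 of 16 had an interval (37.5%), none had a strong one and 2 had one at the promoter (12.5%). Over all protein-coding genes the shares were 82.8%, 74.4% and 75.8%. The highest value was 3.67 at Krt86, in intron 8. No interval was found at Krt31, Krt32, Krt33a, Krt33b, Krt34, Krt35, Krt36, Krt83, Krt84 or Krt85. Of the 8 genes of the inner root sheath and companion layer, 1 had an interval, with a fold enrichment of 2.10, and none was at a promoter. Krt25, Krt26, Krt27, Krt28, Krt72, Krt73 and Krt75 had none. The shares of both hair follicle groups were below that of the stratified group in this list. A value of 0 says that no interval passed the q threshold of the authors' call in the pooled libraries, not that the site was closed in every cell.

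Of the 7 remaining genes, 5 had an interval, 2 had a strong one and 3 had one at the promoter. These shares of 71.4%, 28.6% and 42.9% stand beside 82.8%, 74.4% and 75.8% of all protein-coding genes. Krt80 led this group. Its strongest interval, chr15:101265919-101269118, covered the TSS with 8 summits, the highest 310 bp upstream with a fold enrichment of 8.84 (-log10 q = 78.6). Krt80 was therefore the one gene outside the simple-epithelium group with a strong interval over its TSS. Krt88 had 6.22, in coding exon 5. Krt222 and Krt23 had 4.39 and 4.12, with summits 76 and 58 bp upstream of their starts. Krt24 and Krt42 had no interval.

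The partners of a filament pair were not equal in the strongest fold enrichment. Krt8 had 26.1 and its partner Krt18 had 6.94. Krt7 had 22.7 and Krt19, with which it shares ducts, had 6.68. In the pair of basal cells, Krt5 had 6.61 and Krt14 had 2.88. In these 3 pairs the type II gene was the higher one, whereas Krt1 had 6.15 and its type I partner Krt10 had 18.7. The pairs Krt4 with Krt13 and Krt6a with Krt16 had no interval at either gene.

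The order of the genes on the chromosome was not used to choose them. The type I genes span 1037 kb of chromosome 11, from Krt222 to Krt42, and the type II genes, with the type I gene Krt18 at their end, span 695 kb of chromosome 15, from Krt80 to Krt18. The chromosome 11 cluster held 49 intervals, or 4.72 per 100 kb, against 13.0 on the rest of the chromosome, and the chromosome 15 cluster held 99, or 14.2 per 100 kb, against 11.3. Of the 28 genes without an interval, 26 stood in runs of at least 3 neighbours, and Krt9 and Krt4 stood alone. On chromosome 11 these runs were Krt24 to Krt28 (5 genes), Krt33a to Krt15 (9 genes) and Krt16 to Krt42 (3 genes). On chromosome 15 they were Krt83 to Krt84, Krt75 to Krt6a and Krt72 to Krt2, with 3 genes each. The longest stretch without any interval on chromosome 15 was 72.3 kb and held Krt72, Krt73 and Krt2. On chromosome 11 it was 190 kb and held 15 genes of keratin-associated proteins, which embed the hair keratins, and no keratin gene. Among the other keratin genes, 7 of 25 on chromosome 11 and 14 of 24 on chromosome 15 had an interval.

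The ends of the chromosome 15 cluster, where the simple-epithelium genes lie, held more intervals than its middle. From the end of Krt78 to the end of Krt18, 77.7 kb held 33 intervals, or 42.4 per 100 kb, of which 10 were strong. From Krt80 to Krt88, a stretch that includes Krt7, 106 kb held 31 intervals, or 29.1 per 100 kb, and 6 strong ones. Between them, from Krt81 to Krt2, 370 kb held 21 intervals, or 5.68 per 100 kb. Of these, 6 were strong (28.6%, against 19.4% from Krt80 to Krt88), and the highest had a fold enrichment of 8.25. From Krt2 to the end of Krt78, 136 kb held 12 intervals, or 8.82 per 100 kb, of which 5 were strong and the highest had 24.4. These stretches were drawn after the values were seen and carry no test.

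The highest interval of either cluster was at none of the keratin genes. It lay between Krt78 and Krt8, at chr15:101881728-101887004, with 11 summits, a fold enrichment of 35.9 (-log10 q = 637), and its highest summit was 26.9 kb downstream of the TSS of Krt8. A further pair of intervals between Krt78 and Krt8, at chr15:101888669-101890146 and chr15:101891177-101893864, reached 22.1 and 29.3. The latter had its summit 54 bp from an annotated start of the lncRNA gene Gm62715. Between Krt8 and Krt18, upstream of both, the interval chr15:101924036-101927121 reached 25.6, with its summit 13.7 kb from the TSS of Krt8, 9.98 kb from that of Krt18 and 62 bp from an annotated start of the lncRNA gene Gm63244. The sequences at the summits of the strongest interval and of the one between Krt8 and Krt18 are shown because these sites exceeded the start of Krt18 and lie outside the 1 kb limit. Each is 121 bases of the plus strand of GRCm39, with capitals for GGGCGG and TGANTCA (the AP-1 motif) on either strand.
chr15:101885920-101886040: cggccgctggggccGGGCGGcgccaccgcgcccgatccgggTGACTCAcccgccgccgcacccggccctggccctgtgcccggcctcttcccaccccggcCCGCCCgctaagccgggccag
chr15:101926570-101926690: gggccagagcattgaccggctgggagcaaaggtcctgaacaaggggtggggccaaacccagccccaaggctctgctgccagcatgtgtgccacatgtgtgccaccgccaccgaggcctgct
The first held an AP-1 motif between a pair of GC boxes and had a GC content of 83.5%, and the second held none of the motifs and had 65.3%. Of the 27471 summit windows of chromosomes 11 and 15, 8.89% held the AP-1 motif and 7.15% held the GC box.

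**Figure D3:**
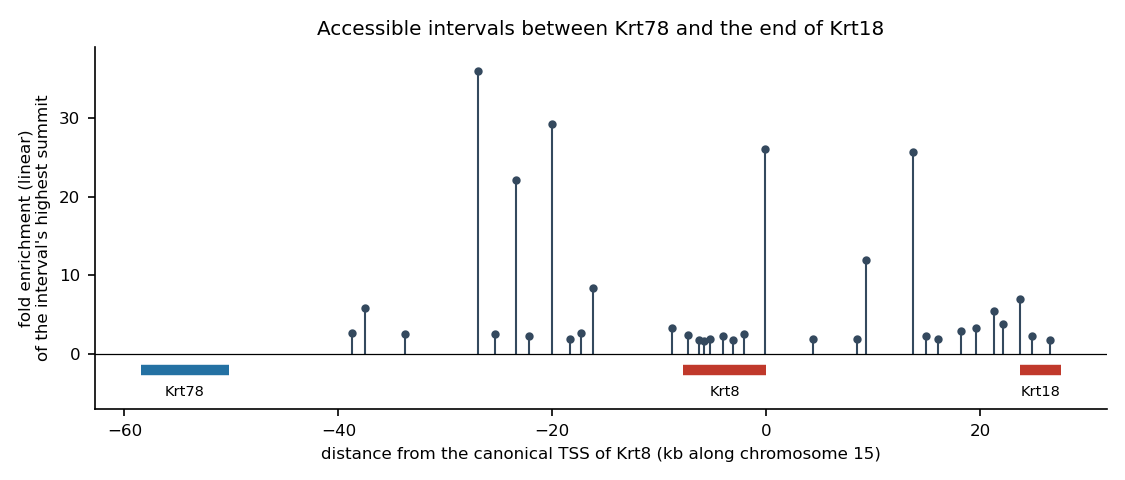
Linear fold enrichment of each of the 33 intervals (y axis, at its highest summit) between Krt78 and the end of Krt18, by distance from the canonical TSS of Krt8 in kb (x axis), with the genes as bars under the axis. The highest line, 35.9, stands 26.9 kb from the TSS of Krt8 towards Krt78, and the line of 25.6 stands 13.7 kb from it towards Krt18.

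Between 1 and 5 kb from a keratin gene lay 8 strong intervals that the limit left out, with fold enrichments from 5.04 to 24.4. The highest of them, chr15:101835378-101836755, between Krt4 and Krt79, had a -log10 q of 370. It lay 1012 bp from Krt79 and 2208 bp from Krt4, just outside the limit, so that Krt4 counts as a gene with no interval. Just inside the limit, at 875 and 984 bp from Krt19, were intervals of 3.47 and 1.77. On chromosome 11, 7 of the 14 intervals that overlapped the 37.9 kb between Krt20 and Krt23 were strong, and the highest, 18.0, was 13158 bp from Krt23. The protein-coding genes next to the clusters all had an interval. Smarce1, 1.54 kb before Krt222, had 8.90, Eif1, after Krt42, had 37.7, Smim41, before Krt80, had 3.08, and Eif4b, 41.6 kb after Krt18, had 36.3. Acly, the gene deleted in tubules of the knockout, lies 206 kb after Krt42 on chromosome 11 and had 50.2 in the pooled list, which does not check the genotype.

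A RefSeq promoter window, 250 bases before to 50 after the start, was found for 36 of the 54 genes. In the 4 windows of simple-epithelium genes the median GC content was 59.7%, against 48.3% in the 32 windows of other keratin genes and 52.7% in all 32851 windows. The CpG content, as observed over expected from the base composition, was 0.462, 0.257 and 0.384. It was 0.641 at Krt7, 0.603 at Krt18, 0.320 at Krt20 and 0.238 at Krt8. Krt8 had the highest fold enrichment of these 4 genes and the lowest CpG content, though its window is set on a RefSeq start 140 bp from the canonical TSS. TATAAA was found on either strand in 2 of 4 simple-epithelium windows and in 17 of 32 others (53.1%), beside 13.6% of all windows. It was present in 7 of 8 windows of inner root sheath and companion layer genes, in 6 of 9 of hair shaft genes and in 3 of 11 of stratified genes. GGGCGG was found in 1 of 4 and 1 of 32 (3.13%), at Krt7 and Krt75, beside 35.7% of all windows. CCAAT was found in 0 of 4 and 14 of 32 (43.8%), beside 37.4%. TGANTCA was found in 0 of 4 and 1 of 32, beside 7.81%, and the Grainyhead motif AACCGGTT in none of the keratin windows, beside 0.146% of all windows. A match of letters is not a bound site, and a missing match holds for this window only.

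Further gene groups were described in the same way. The other intermediate filament genes had an interval in 15 of 15, and a strong one in 14, with a median strongest fold enrichment of 22.8. The nuclear lamins led with 69.1 (Lmnb2), 60.2 (Lmnb1) and 50.5 (Lmna). The summit counted for Lmnb2 lay downstream of the gene. Within 1 kb of the canonical TSS the highest summit had 14.1 at Lmnb2, 60.2 at Lmnb1 and 46.0 at Lmna. Genes of desmosomes and plakins, which anchor keratin filaments at cell contacts, had an interval in 18 of 19 and a strong one in 15, with a median of 25.2. Jup (plakoglobin) had 69.9, Plec (plectin) 50.5 and Pkp2 (plakophilin 2) 48.5. At the low end, Dsc3, Dsc1 and Dsg3 had 3.40, 2.75 and 2.10, and Dsg1c, an epidermal desmoglein, had no interval. All 16 genes of epithelial transcription regulators had a strong interval. Klf5, Grhl1 and Elf3 had 84.5, 71.0 and 64.9, and the lowest, Hoxc13, had 5.43. In contrast, of 111 genes of keratin-associated proteins 23 had an interval (20.7%) and 3 a strong one. The lists of other intermediate filaments, desmosomes and plakins, and epithelial regulators were above the 82.8% of all genes with an interval. Keratin-associated proteins were, like the hair keratins, far below it. Strong intervals were present at 93.3%, 78.9% and 100% of these 3 lists and at 2.70% of keratin-associated proteins, beside 74.4% of all genes. Median gene length was 17.1, 37.2 and 27.98 kb in the 3 lists. It was 0.781 kb in keratin-associated proteins and 19.2 kb over all protein-coding genes. The part of gene length in these shares was not tested.

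**Figure D4:**
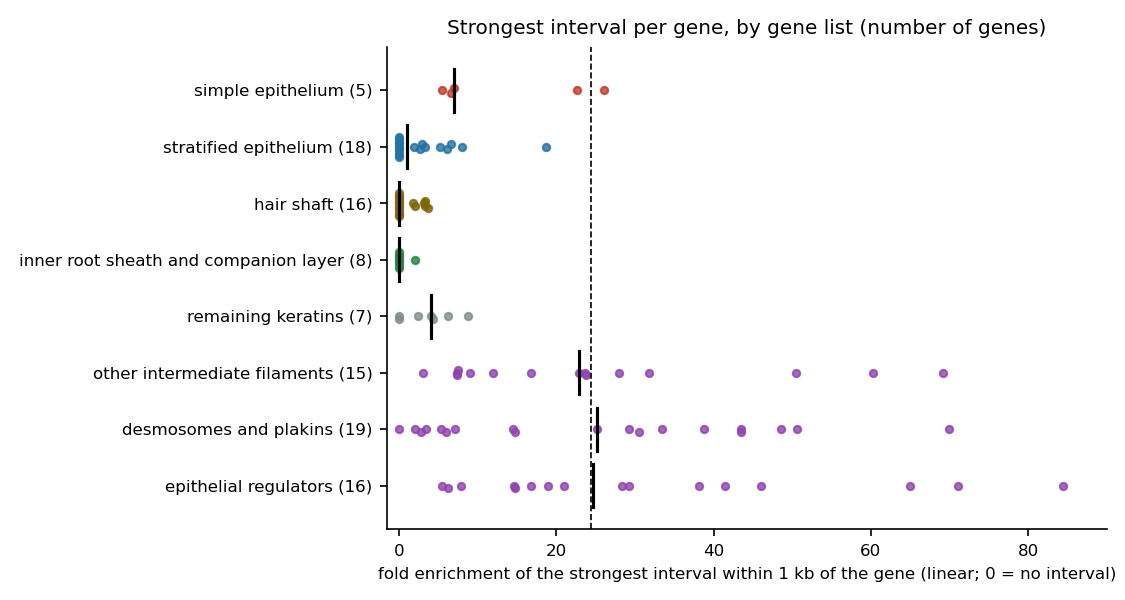
Linear fold enrichment of the strongest interval within 1 kb (x axis, 0 for no interval) of each gene (points) in the keratin groups and in 3 further lists (rows, number of genes in brackets), with black lines at the list medians and a dashed line at the median of all protein-coding genes, 24.4. The medians of the lower 3 lists are 22.8, 25.2 and 24.7, and that of the simple-epithelium keratins is 6.94.

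Markers of the labelled tissue are set beside the 82.8% of all protein-coding genes with an interval. All 4 proximal tubule genes, 4 genes of the thick limb and distal tubule and 5 of the collecting duct had one. So did 3 genes of podocytes, 3 of endothelium, 3 immune and 3 stromal genes. The highest value in each list ran from 10.9 at Col1a1 to 38.2 at Slc12a3. The list medians ran from 4.52 in podocytes to 19.6 in thick limb and distal tubule, against 24.4 over all protein-coding genes. Markers of urothelium and of cornified epidermis were counted as well. Urothelium had an interval at 4 of 4 markers (Upk1a 18.7, Upk2 9.95, Upk3a 5.89 and Upk1b 3.80). The Upk1a summit lay downstream of the gene, and the highest within 1 kb of its TSS had 10.5. Cornified epidermis had one at 3 of 4, with 8.90 at Ivl, 4.19 at Sprr1b and 2.10 at Lce1a1, and none at Flg. Counts of 4 of 4 and 3 of 4 are close to the 82.8% of all genes and do not show that either cell type was present. A part of these cell types in the values of Krt7, Krt19, Krt20 and Krt10 was not tested.

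Because the authors kept uniquely mapped reads, sequence shared between paralogs can hide intervals. The share of 50-base words within 1 kb of the gene that occur elsewhere in the genome was highest at Krt6b (27.5%), Krt6a (24.5%), Krt16 (21.7%) and Krt81 (20.5%). It exceeded 5% at 14 of the 49 other keratin genes, of which 4 had an interval, and at Krt8 (9.49%) among the simple-epithelium genes. The values of these genes are therefore uncertain. Among them is the absence of intervals at Krt6a, Krt6b, Krt9 and Krt16, and at the hair shaft genes Krt31, Krt33a, Krt33b, Krt34, Krt83 and Krt85.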

How the data were processed

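ATAC-seq of kidney cortex nuclei was sequenced as 50-base read pairs. As the study's methods and processing notes state, the authors used fastp for trimming and Bowtie2 2.3.4.3 for alignment to mm39 (GRCm39), and kept uniquely mapped reads without duplicates. They ran MACS3 3.0.0 at q 0.05 and dropped blacklisted regions and chromosomes outside the standard set with BEDTools 2.29.1. The deposited list holds, per summit, the fold enrichment (a linear ratio), the -log10 q and a score, all as the authors' caller wrote them, and an offset that places the summit. The deposited summits before filtering hold -log10 q, and of their 138 summits within 1 kb of keratin genes none was missing from the filtered list. Libraries were grouped by the genotype in the labels, and no library entered a comparison.

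The 749750 rows were grouped into distinct intervals. The summit with the lowest q gave the values of an interval. Genes without an interval entered medians at 0. Places are those of the canonical transcript of GENCODE M39. Since the call is pooled, no test was made, and counts stand beside the same counts over all protein-coding genes. Depth per library, and so the precision of each value, is unknown. Members and lists were chosen with earlier results of these data known. Genes named are the 5 simple-epithelium genes, the 10 other keratin genes with the lowest q and all without an interval, and in each other list the 3 with the lowest q and those without an interval where they were 5 or fewer. Krt14, Dsc1, Dsc3, Dsg3, Hoxc13, other marker genes, flanking genes, lncRNA genes and intervals outside the limit were chosen after their values were seen. Krt74 and Lor were not annotated as protein-coding genes. Alternatives changed the distance, the q and fold enrichment limits, the promoter rule and the assignment of intervals to genes. Scripts were tested on simulated data in 10 planted cases. Python 3.11.15, numpy 2.4.6, pandas 2.3.3, numba 0.67.0 and matplotlib 3.10.9 were used.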

Additional observations from a re-analysis of the deposited data

How the results depend on the processing

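Each count and median of the simple-epithelium genes and of the other keratin genes was recomputed under other settings, of which 1 was chosen after seeing the data. It left out genes with over 5% repeated words. Of 76 values, 68 stayed within 1.5 times the reported one and 8 moved further. Some of the 68 could not move. The distance from the gene does not enter the promoter count, and every strong interval passes the stricter q and fold enrichment limits. Leaving out genes with repeated words set counts over 35 other keratin genes against counts over 49. With 5 kb on either side of the gene, 13 of the 49 other keratin genes had a strong interval, beside 77.5% of all protein-coding genes. The median number of intervals of these 49 genes was then 1 and their median strongest fold enrichment was 2.42. With q under 1e-05, the median number of intervals of the simple-epithelium genes was 3, beside 2 over all protein-coding genes. With intervals of a fold enrichment of at least 5, that median was 1 in the simple-epithelium genes and also 1 over all protein-coding genes. Under this limit, 7 other keratin genes had an interval, beside 74.4% of all genes, and 2 had one at the promoter, beside 66.2%. Where the interval had to cover the TSS, 3 other keratin genes had a promoter interval, beside 71.2% of all genes. The cause of each shift is the construction of the alternative, which adds or removes intervals. No paired analysis was possible because the list pools all libraries. For the same reason no replicate could be left out, and no replicate error, genotype contrast or depth per library can be given.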
